A study of Homo sapiens with 5 samples.

Results

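The matrix metalloproteinase (MMP) and TIMP group held 10 genes, of which 7 were MMPs (MMP1, MMP2, MMP7, MMP9, MMP13, MMP14 and MMP15) and 3 were their tissue inhibitors (TIMP1, TIMP2 and TIMP3). They were picked by gene symbol from the 37181 entries of the expression table, and for a symbol with several entries the entry with the highest mean was taken. HCC827 is a human lung adenocarcinoma cell line with a deletion in exon 19 of EGFR, and the gefitinib-resistant HCC827/GR cells were raised from it under stepwise increasing gefitinib for more than 6 months. Gefitinib is an EGFR tyrosine kinase inhibitor, and the study compared the transcriptomes of resistant and sensitive cells to look for changes that go with acquired resistance. RNA was sequenced from HCC827/GR replicates 1, 2 and 3 and from HCC827 replicates 2 and 3. Whether each of the 5 libraries carries the exon 19 deletion was not tested here. The resistant cells are a single derived line, and whether gefitinib was present at harvest is not given in the sources used here. Neither the sample labels nor the sequencing methods say whether the replicates came from separate cultures, so p-values measure the spread between these libraries, which may be technical.

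MMPs are zinc-dependent endopeptidases that cut collagens, gelatins, laminins, proteoglycans and surface proteins, and most are made as inactive proenzymes whose prodomain must be removed. TIMPs bind the active site and block it, so the balance between protease and inhibitor sets how much matrix is cut. In lung carcinoma both tumour cells and the surrounding stroma can make MMPs, and MMP levels are often read as part of an epithelial-to-mesenchymal programme.

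The coding stretch that holds the catalytic zinc site is shown for each MMP, because this is the part that makes the 7 genes a family and that a TIMP blocks. Sequences are GENCODE transcripts on GRCh38, 5′ to 3′ on the gene's strand, with the codons of the 3 zinc-binding histidines and of the catalytic glutamate in capitals.
MMP1: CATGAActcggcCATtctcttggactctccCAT
MMP13: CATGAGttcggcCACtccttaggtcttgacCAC
MMP2: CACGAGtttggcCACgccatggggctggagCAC
MMP9: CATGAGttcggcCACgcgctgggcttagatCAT
MMP7: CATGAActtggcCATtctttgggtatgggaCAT
MMP14: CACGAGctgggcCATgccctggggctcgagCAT
MMP15: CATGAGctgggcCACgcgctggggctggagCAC
The stretch lies in exon 5 of 10 of MMP1 (chr11:102795549-102795581, minus strand) and in exon 8 of 13 of MMP9 (chr20:46012453-46012485, plus strand). Over these 33 bases the most alike pairs were MMP2 with MMP15 and MMP14 with MMP15, each identical at 28 bases, and the least alike pair was MMP1 with MMP2, identical at 18. No 50-base word of a member's transcript occurred in the transcript of another member. With other genes, MMP1 shared 2.92% of its words with WTAPP1 on the opposite strand, listed at no more than 0.0269 FPKM, and MMP2 shared 3.44% with AC007336.3, listed at no more than 0.0345 FPKM.

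For the inhibitors the first codons of the mature protein are shown, since this end fills the active site of the protease, with the codons of the first pair of cysteines in capitals.
TIMP1: TGCaccTGTgtcccaccccacccacag
TIMP2: TGCagcTGCtccccggtgcacccgcaa
TIMP3: TGCacaTGCtcgcccagccacccccag
These 27 bases lie at chrX:47583485-47583511 on the plus strand for TIMP1, at chr17:78924984-78925010 on the minus strand for TIMP2 and at chr22:32802071-32802097 on the plus strand for TIMP3. TIMP1 shared 17 bases with TIMP2 and 18 with TIMP3.

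Levels were deposited as FPKM, fragments per kilobase of transcript scaled to the mapped total, which are corrected for length. Comparisons of level between genes rest on that correction, and how well it holds for short or joined entries was not tested. FPKM keeps no read counts, the sequencing depth behind these values is unknown here, and no counting interval is given. In bulk RNA, fewer expressing cells and less RNA per expressing cell cannot be told apart. Of 9 epithelial and lung markers, 7 were in the table and 6 had a mean above 1 FPKM, and KRT7 and NAPSA were not analysed here. EPCAM, an epithelial adhesion protein, stood at 7.32, 10.8 and 8.53 FPKM in HCC827/GR and at 86.9 and 72.6 FPKM in HCC827, and NKX2-1, a lung lineage factor whose entry also joins SFTA3 and AL132857.1, stood at 0.963, 0.762 and 0.415 against 4.6 and 4.0 FPKM. Both fell in HCC827/GR (log2 fold changes −3.04 and −1.64, adjusted p = 0.00349 and 0.0115 by limma with Benjamini-Hochberg adjustment), while the surfactant gene SFTPB reached at most 0.139 FPKM in any library. EPCAM passed with any library left out, and NKX2-1 was lost without HCC827 replicate 2 (limma adjusted p = 0.0820) or replicate 3 (0.0639). The summed epithelial list was 544, 574 and 443 FPKM in HCC827/GR and 1068 and 1186 FPKM in HCC827, with KRT18 its most abundant gene at a mean of 348 FPKM.

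Stromal cells are the other usual source of MMPs, and their markers were measured in the same libraries. The summed fibroblast list of 8 genes lay between 2.72 and 3.07 FPKM in HCC827/GR and at 3.45 and 3.34 FPKM in HCC827, most of it PDGFRA at a mean of 2.12 FPKM in an entry that joins FIP1L1, with DCN at most 0.0259 FPKM. PDGFRB went the other way, at 0.278, 0.184 and 0.184 FPKM in HCC827/GR and at 0.00777 and 0.0147 FPKM in HCC827, and COL1A1 overlapped between the groups. The leukocyte and macrophage list (8 of 9 in the table, CD3E not analysed here) summed to 35.5, 33.6 and 38.8 FPKM against 32.8 and 40.5 FPKM, of which CD68, a lysosomal protein whose entry also joins neighbouring genes, took a mean of 35.1 FPKM, and PTPRC, the pan-leukocyte antigen, reached at most 0.0228 FPKM. CD163, at 0.257, 0.323 and 0.295 FPKM against 1.01 and 0.626 FPKM, CSF1R, at most 0.311 FPKM in HCC827/GR against 0.662 and 0.619 FPKM, and CD14, at most 0.164 FPKM against 0.267 and 0.266 FPKM, were lower in every HCC827/GR library. The endothelial list of 5 summed to 0.108, 0.0672 and 0.0937 FPKM in HCC827/GR and to 4.44 and 3.42 FPKM in HCC827. Nearly all of the HCC827 sums was PECAM1, an endothelial adhesion molecule, which was listed at 0 in HCC827/GR and at 4.34 and 3.32 FPKM in HCC827, whereas VWF stayed at or under 0.0268 FPKM. KDR, an endothelial growth factor receptor, went the other way and made up most of the HCC827/GR sums, at 0.0743, 0.0584 and 0.0830 FPKM in HCC827/GR and at 0 and 0.00672 FPKM in HCC827. The PECAM1 value is that of 1 of 10 entries under the symbol and holds no Ensembl transcript matched to GENCODE, so the level of PECAM1 is uncertain. The part of other cell types in the MMP and TIMP values was not tested.

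Differences were tested with limma on log2(FPKM + 1). Entries averaging 0.5 FPKM or more over the 5 libraries entered, 16189 in all, and a gene was called at a Benjamini-Hochberg adjusted p under 0.05 over all of them. Fold changes are HCC827/GR over HCC827 on that scale, which understates the change of low genes. Of the 10 genes, 9 were listed above 0 in at least 1 library and 5 passed the filter (MMP1, MMP7, MMP9, MMP15 and TIMP1). Of these 5, 1 was called lower (MMP1) and 0 were called higher, against 5.71% lower and 5.26% higher among all entries tested. Where a call needed only an unadjusted p under 0.05 and a change of 2 times or more (0.5 times or less for lower genes), MMP1 counted as lower and MMP9 as higher, where 3.97% of all entries counted as lower and 2.96% as higher. The libraries of the groups did not overlap for 4 of the 5 tested genes, against 46.3% of all entries tested. HCC827/GR lay above for MMP9 and TIMP1, as for 22.8% of all entries, and below for MMP1 and MMP15, as for 23.4%. The median log2 fold change of the 5 was 0.06, beside 0.00 over all entries tested.

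**Figure D1:**
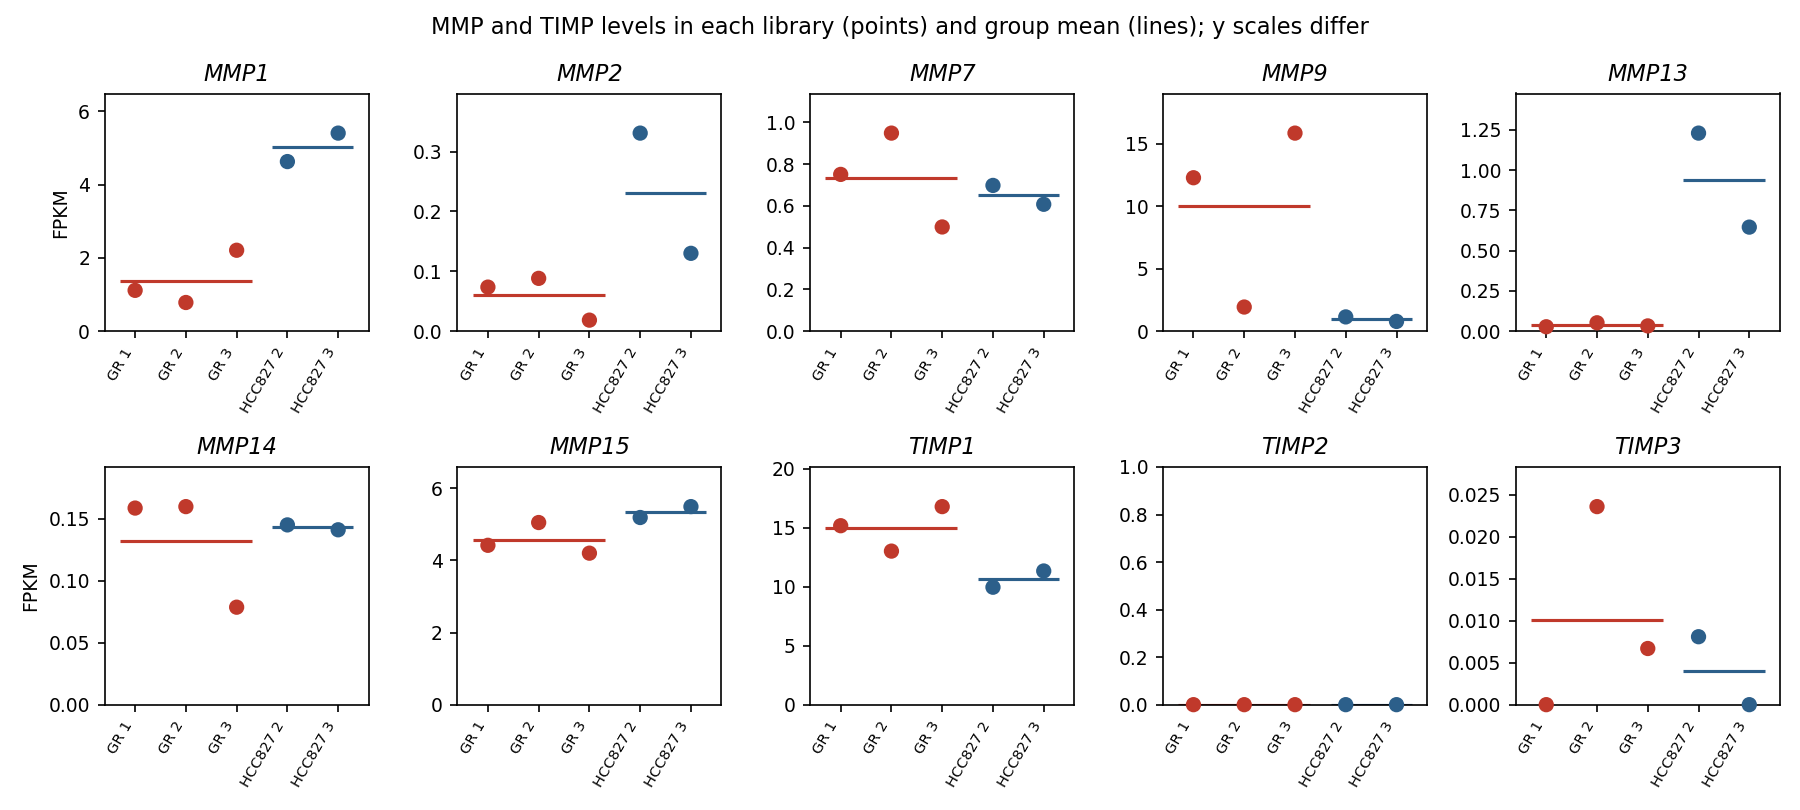
FPKM (y axis, a separate scale for each gene) of the 10 genes in each library (points; GR, HCC827/GR in red, HCC827 in blue), with lines at the group means. MMP1 and MMP13 lie lower in all 3 HCC827/GR libraries, MMP9 is at 12.3 and 15.9 FPKM in replicates 1 and 3 but at 1.93 FPKM in replicate 2, and TIMP2 is listed at 0 throughout.

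The collagenases make the first cut in intact fibrillar collagen, and of this pair MMP1 was called lower in resistant cells and MMP13 was not tested. MMP1 (interstitial collagenase, ENSG00000196611, chr11:102789920-102798160, minus strand) was at 1.11, 0.783 and 2.21 FPKM in HCC827/GR and at 4.63 and 5.41 FPKM in HCC827. Every resistant library was below both sensitive ones, and replicate 3 was the highest of the resistant. The means were 1.37 ± 0.746 (SD, n = 3) and 5.02 ± 0.550 FPKM (SD, n = 2), and MMP1 fell by 1.39 on the log2 scale (SE 0.28, 95% interval −2.11 to −0.67, limma adjusted p = 0.0445). This call lay near the threshold and held in 6 of 14 alternatives, with adjusted p from 0.0317 to 0.281 (limma or recoded Ballgown model). It was lost without HCC827/GR replicate 1 (limma adjusted p = 0.129), without HCC827/GR replicate 2 (0.0928), without HCC827 replicate 2 (0.166) and without HCC827 replicate 3 (0.183), and the log2 fold change stayed between −1.63 and −1.21 in all leave-one-out fits.

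MMP13 (collagenase 3, chr11:102942995-102955734, minus strand) was at 0.0274, 0.0521 and 0.0326 FPKM in HCC827/GR and at 1.23 and 0.646 FPKM in HCC827. The resistant libraries were all close to 0, and the groups did not overlap. The mean over the 5 libraries was 0.398 FPKM, under the filter, so MMP13 was not tested in the main comparison, and the ratio of the group means was 0.0398. Without the filter its log2 fold change was −0.89 (SE 0.16) with a limma adjusted p of 0.0693.

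The gelatinases cut denatured collagen and the collagen of basement membranes. MMP9 (gelatinase B, ENSG00000100985, chr20:46008908-46016561, plus strand) was at 12.3, 1.93 and 15.9 FPKM in HCC827/GR and at 1.14 and 0.779 FPKM in HCC827. All 3 resistant libraries were above both sensitive ones, but replicate 2 was much nearer to HCC827 than to the other resistant libraries. The means were 10.02 ± 7.23 (SD, n = 3) and 0.960 ± 0.256 FPKM (SD, n = 2). The log2 fold change was 2.15 (SE 0.81, 95% interval 0.03 to 4.28, limma unadjusted p = 0.0476, limma adjusted p = 0.179). With HCC827/GR replicate 2 left out, the log2 fold change was 2.94 (SE 0.19, limma adjusted p = 0.0202), the 1 alternative of 14 in which MMP9 passed, and over all of them the adjusted p ranged from 0.0202 to 0.625. The share of FPKM held by small RNA symbols was 14.1, 5.04 and 7.26% in the HCC827/GR libraries, lowest in replicate 2, and 3.48 and 11.2% in HCC827, and its part in the MMP9 values was not tested.

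SLC12A5-AS1, an antisense transcript on the opposite strand, shares 11.1% of the 50-base words of the MMP9 transcript. Whether counting used strand is not given in the sources used here, so reads of this stretch cannot be told apart. Its own entry was at 0.235, 0.0608 and 0.225 FPKM in HCC827/GR and at 0.0847 and 0.106 FPKM in HCC827, well under the values of MMP9 in every library.

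MMP2 (gelatinase A, chr16:55389700-55506691, plus strand) was at 0.0736, 0.0882 and 0.0184 FPKM in HCC827/GR and at 0.331 and 0.130 FPKM in HCC827. It lay lower in every resistant library, but at levels under the filter, and without the filter its log2 fold change was −0.21 with a limma adjusted p of 0.30. MMP9 was thus the gelatinase with the higher level in each of the 5 libraries.

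MMP7 (matrilysin, chr11:102520508-102530753, minus strand), a small MMP without the hemopexin domain, was at 0.751, 0.949 and 0.499 FPKM in HCC827/GR and at 0.698 and 0.608 FPKM in HCC827. The groups overlapped, and the log2 fold change was 0.06 (95% interval −0.37 to 0.49, limma adjusted p = 0.857).

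The membrane-type MMPs are anchored in the cell surface, where MMP14 activates pro-MMP2 with the help of TIMP2. MMP14 (chr14:22836557-22849027, plus strand) was at 0.159, 0.160 and 0.0787 FPKM in HCC827/GR and at 0.145 and 0.141 FPKM in HCC827, with overlapping groups under the filter (limma adjusted p without the filter 0.892). MMP15 (chr16:58025566-58046901, plus strand) was at 4.42, 5.05 and 4.20 FPKM in HCC827/GR and at 5.19 and 5.49 FPKM in HCC827. Its resistant libraries were all a little below the sensitive ones, but the log2 fold change of −0.19 (95% interval −0.47 to 0.08) did not pass the test (limma adjusted p = 0.323).

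TIMP1 (chrX:47582313-47586789, plus strand), a secreted inhibitor that also binds pro-MMP9, was at 15.2, 13.0 and 16.8 FPKM in HCC827/GR and at 9.96 and 11.3 FPKM in HCC827. It stood above every other member in mean level in both groups, and its resistant libraries were all above the sensitive ones. The log2 fold change was 0.45 (SE 0.14, 95% interval 0.09 to 0.82), with a limma adjusted p of 0.120 that did not pass, and the adjusted p lay between 0.114 and 0.493 over 14 alternatives. TIMP3 (chr22:32801701-32863043, plus strand), which binds to the matrix, was at 0, 0.0236 and 0.00670 FPKM in HCC827/GR and at 0.00810 and 0 FPKM in HCC827, too low to compare.

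TIMP2 (chr17:78852977-78925387, minus strand) had 2 entries under its symbol, and both were listed at 0 in all 5 libraries. Neither entry holds an Ensembl transcript, and the Ensembl transcripts of TIMP2 sit in an entry named CEP295NL, after a gene on the same strand, that joins both genes. That joined entry was at 6.43, 6.89 and 4.77 FPKM in HCC827/GR and at 5.03 and 14.9 FPKM in HCC827. HCC827 replicate 2 lay within the range of HCC827/GR and replicate 3 above it, and the log2 fold change of −0.49 had a wide interval (−1.64 to 0.66, limma adjusted p = 0.542) and ran from −1.19 to 0.21 when single libraries were left out. The 0 under the TIMP2 symbol is thus no measure of the Ensembl transcripts of TIMP2, whose level is uncertain in these libraries.

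A further entry at the TIMP2 gene was far higher than either. AC022966.2 in the table, which GENCODE release 29 lists as the antisense gene AC022966.1 of 367 bases (chr17:78855478-78855844, plus strand), lies within exon 5 of 5 of TIMP2 and shares 318 of its 50-base words with the TIMP2 transcript. It was at 145, 153 and 116 FPKM in HCC827/GR and at 108 and 94.6 FPKM in HCC827. The resistant libraries were all above the sensitive ones, with a log2 fold change of 0.44 (95% interval 0.03 to 0.85, limma adjusted p = 0.164). Without strand, reads of this antisense gene and of the last exon of TIMP2 cannot be told apart.

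**Figure D2:**
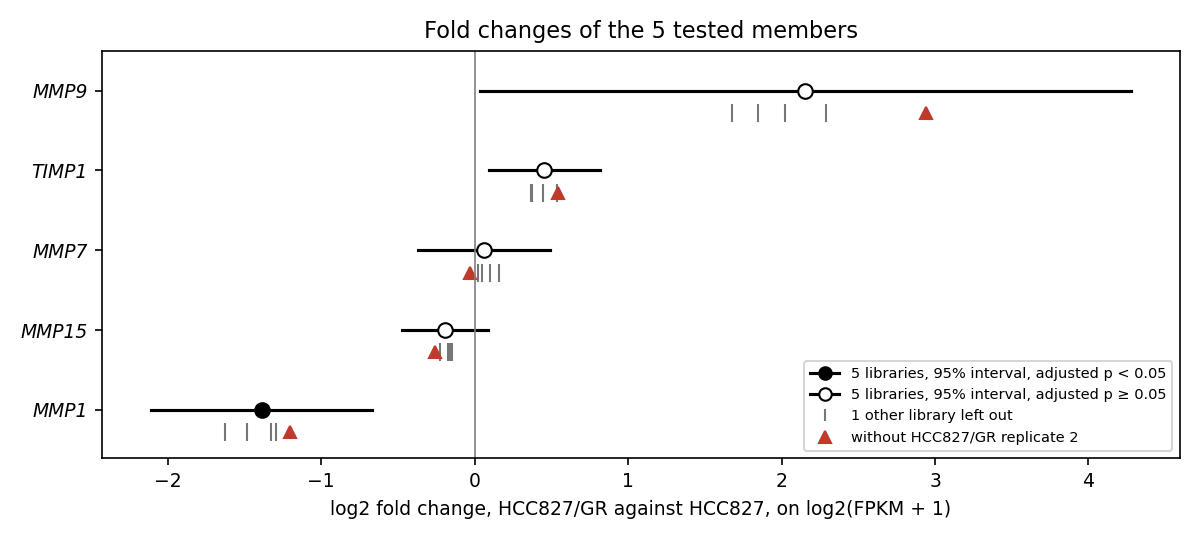
Log2 fold change of HCC827/GR against HCC827 on log2(FPKM + 1) (x axis) for the 5 tested genes, with 95% intervals as lines, ticks for fits without 1 library and triangles for the fit without HCC827/GR replicate 2. Only MMP1 is filled (adjusted p = 0.0445, limma), and MMP9 moves from 2.15 to 2.94 without that library.

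Ordered by mean level, HCC827 had TIMP1 (10.7 FPKM), MMP15 (5.34), MMP1 (5.02), MMP9 (0.960), MMP13 (0.938), MMP7 (0.653), MMP2 (0.230) and MMP14 (0.143). The ranges of MMP15 and MMP1 overlapped, as did those of MMP13 with MMP9 and with MMP7, and those of MMP2 and MMP14. In HCC827/GR the order was TIMP1 (15.0 FPKM), MMP9 (10.02), MMP15 (4.56), MMP1 (1.37), MMP7 (0.733), MMP14 (0.133), MMP2 (0.0601) and MMP13 (0.0374). There the range of MMP9 overlapped those of TIMP1, MMP15 and MMP1, while MMP1 overlapped MMP7, and MMP2 overlapped MMP14 and MMP13.

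Summed over the 7 MMPs, the level was 18.8, 9.01 and 22.9 FPKM in HCC827/GR and 13.4 and 13.2 FPKM in HCC827, so the sums overlapped. Over every MMP symbol, MMP24 included, the sums were 69.2, 72.6 and 66.5 FPKM in HCC827/GR, above 44.6 and 45.6 FPKM in HCC827. Over every MMP symbol but MMP24 the sums of the groups overlapped, with HCC827/GR replicate 2 the lowest. Over the 7 MMPs without MMP9, left out after its values were seen, they were 6.54, 7.08 and 7.04 FPKM in HCC827/GR, below 12.2 and 12.4 FPKM in HCC827. In the sum over the 7 MMPs, the shares of MMP9 and of MMP1 did not overlap between the groups, while that of MMP15 did. MMP9 made up 65.2, 21.4 and 69.3% of this sum in HCC827/GR and 8.54 and 5.90% in HCC827. MMP1 made up 5.92, 8.68 and 9.65% in HCC827/GR and 34.6 and 41.0% in HCC827. The share of MMP15 was 23.5, 56.0 and 18.3% in HCC827/GR and 38.8 and 41.6% in HCC827. In HCC827/GR replicate 2 it was thus larger than that of MMP9. The summed TIMP level, with TIMP2 entered at 0 and thus nearly all TIMP1, was 15.2, 13.0 and 16.8 FPKM in HCC827/GR and 9.97 and 11.3 FPKM in HCC827. With the joined entry counted as TIMP2 it was 21.6, 19.9 and 21.6 FPKM in HCC827/GR and 15.0 and 26.2 FPKM in HCC827, and the groups overlapped.

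With TIMP2 at 0, the MMP to TIMP ratio per library was 1.24, 0.691 and 1.36 in HCC827/GR and 1.34 and 1.16 in HCC827, with means of 1.10 ± 0.358 (SD, n = 3) and 1.25 ± 0.125 (SD, n = 2) and overlapping libraries. The order of the means turned with the joined entry counted as TIMP2 (0.795 ± 0.312 in HCC827/GR, 0.697 ± 0.274 in HCC827). It also turned over all MMP and TIMP symbols (4.27 ± 0.746 and 3.59 ± 0.252), and the libraries of the groups overlapped in both. Over all these symbols but MMP24 the order did not turn (1.08 ± 0.308 in HCC827/GR, 1.15 ± 0.124 in HCC827), and the libraries overlapped. Without MMP9, a choice made after its values were seen, the ratio was 0.431, 0.543 and 0.419 in HCC827/GR and 1.23 and 1.10 in HCC827, and the groups no longer overlapped. Single pairs set MMP1 and MMP9, the tested genes with the largest negative and positive log2 fold change, against TIMP1. Their opposite directions thus follow from that choice. MMP1 over TIMP1 was 0.0734, 0.0601 and 0.131 in HCC827/GR and 0.465 and 0.477 in HCC827, and MMP9 over TIMP1 was 0.809, 0.148 and 0.944 in HCC827/GR and 0.115 and 0.0687 in HCC827. No p is given for these ratios. The 10 arrangements of 3 against 2 libraries are too few for an exact permutation test to reach 0.05, and no other test of them was run.

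**Figure D3:**
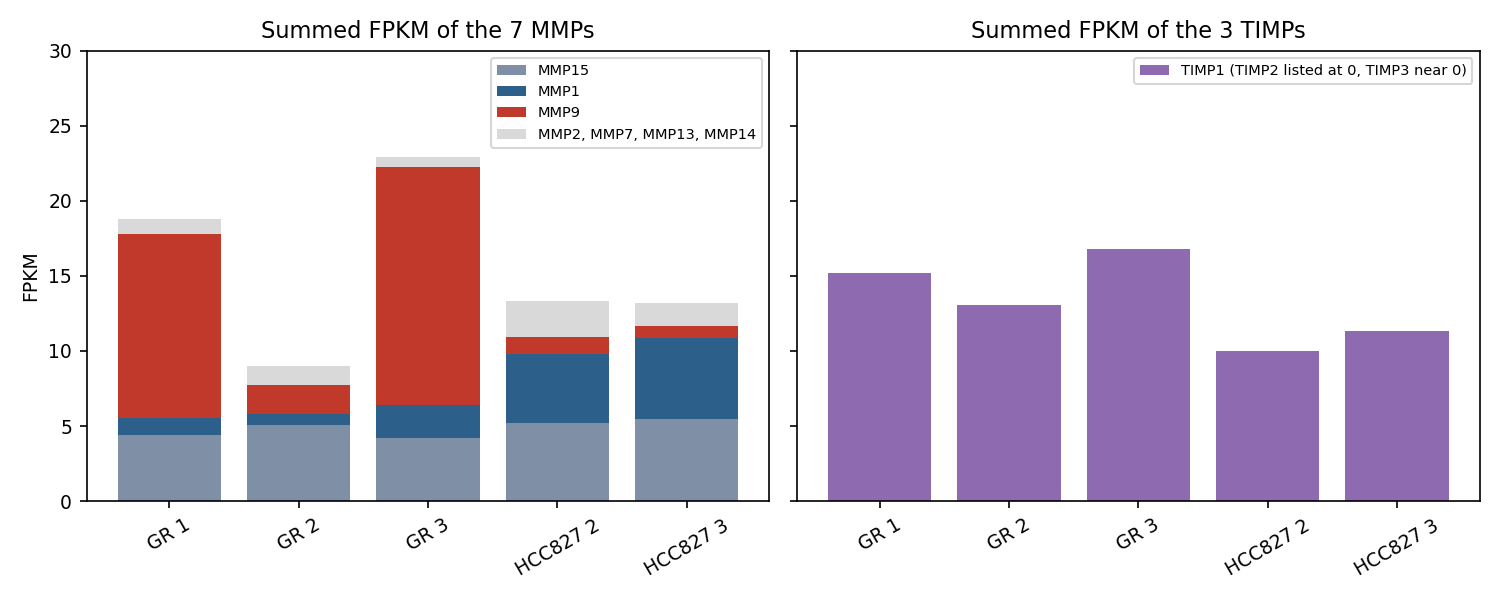
Summed FPKM (y axis) of the 7 MMPs (left, stacked by gene) and of the 3 TIMPs (right) in each library (GR, HCC827/GR). The MMP sums of the groups overlap (9.01 to 22.9 FPKM in HCC827/GR, 13.2 and 13.4 FPKM in HCC827). MMP9 fills 65.2% and 69.3% of the sum in HCC827/GR replicates 1 and 3, and 21.4% in replicate 2.

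Most of the remaining MMP family was barely expressed. Of 17 other symbols (16 further MMPs and TIMP4), 14 were in the table, 12 of them were under the filter, and of the 2 tested, 0 were called (median log2 fold change 0.22). MMP24, a membrane-type MMP best known from the nervous system, was at 49.1, 62.1 and 42.3 FPKM in HCC827/GR and at 29.9 and 31.4 FPKM in HCC827. It stood above every one of the 10 genes, with a log2 fold change of 0.70 and a limma adjusted p of 0.0824. Words shared with other genes were checked for the 10 genes only and not for MMP24. TIMP4 was at 1.62, 1.23 and 1.59 FPKM in HCC827/GR and at 1.87 and 2.04 FPKM in HCC827 (log2 fold change −0.26, limma adjusted p = 0.264). Both had groups that did not overlap, in opposite directions, and neither passed. MMP11 (stromelysin 3) was under the filter at 0.558, 0.727 and 0.544 FPKM against 0.319 and 0.184 FPKM, and MMP12 (macrophage elastase) was listed at 0 in HCC827/GR and at 0.0497 and 0.0785 FPKM in HCC827.

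Proteases that activate pro-MMPs, and proteins that anchor or clear MMPs, formed a list of 14 genes, of which 11 were tested. Of these, 2 were called higher, 2 lower and 7 neither, where 5.26% of all entries tested were called higher and 5.71% lower. The median log2 fold change was 0.20, beside 0.00 over all entries. ST14 (matriptase), a membrane serine protease of epithelia, was at 1.42, 2.04 and 1.19 FPKM in HCC827/GR and at 37.9 and 31.6 FPKM in HCC827, and it fell by 3.82 on the log2 scale (limma adjusted p = 0.00234). PCSK6, a proprotein convertase related to furin, was at 0.349, 0.555 and 0.401 FPKM against 1.67 and 1.85 FPKM and also fell (log2 fold change −0.95, limma adjusted p = 0.0194), whereas FURIN itself was at 8.33, 7.64 and 5.01 FPKM against 5.26 and 5.29 FPKM (limma adjusted p = 0.404). PLAU, the urokinase that makes plasmin, was at 31.7, 39.0 and 55.8 FPKM against 75.4 and 93.6 FPKM, lower in every resistant library without passing (limma adjusted p = 0.0857). Of the epithelial markers, EPCAM, CDH1, KRT18, KRT19 and the NKX2-1 entry also fell in HCC827/GR, KRT8 did not pass (limma adjusted p = 0.101) and SFTPB was under the filter, and their part in the difference of ST14 was not tested. With single libraries left out, KRT18 passed in 0 of 5 fits (limma adjusted p from 0.0851 to 0.147), KRT19 was lost without HCC827/GR replicate 1 (0.0525) or HCC827 replicate 2 (0.0544), and CDH1 was lost without HCC827 replicate 2 (0.0798) or 3 (0.0550). ST14 passed in each of the 5 fits with a library left out, whereas PCSK6 passed in 0 of them (limma adjusted p from 0.0525 to 0.0907). PCSK6 averaged 0.435 FPKM in HCC827/GR and passed the filter through its level in HCC827, and without the filter its limma adjusted p was 0.0538.

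The genes called higher in that list encode thrombospondins, matrix glycoproteins that bind pro-MMPs and hand them to LRP1 for clearance. THBS1 was at 391, 267 and 425 FPKM in HCC827/GR and at 33.0 and 38.6 FPKM in HCC827 and rose by 3.27 on the log2 scale (limma adjusted p = 0.00521), and THBS2 was at 4.69, 5.79 and 6.67 FPKM against 0.570 and 0.571 FPKM (log2 fold change 2.09, limma adjusted p = 0.00521). LRP1 was at 5.06, 5.18 and 3.74 FPKM against 3.74 and 2.63 FPKM (limma adjusted p = 0.222). RECK, a membrane-anchored MMP inhibitor, and BSG, a surface inducer of MMPs, had log2 fold changes of 0.20 and 0.07 (limma adjusted p = 0.434 and 0.828). THBS1 and THBS2 passed with any library left out. CD44, which holds MMP9 at the cell surface, was at 26.7, 29.4 and 32.4 FPKM against 21.9 and 19.9 FPKM (log2 fold change 0.48, limma adjusted p = 0.0757).

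The ADAM and ADAMTS proteases, which carry a related zinc site and are also held by TIMPs, formed a list of 28, with 27 in the table and 12 tested. Of these, 2 were called higher, 0 lower and 10 neither, beside 5.26% higher and 5.71% lower among all entries tested. A log2 fold change above 0 was found for 11 of the 12 tested (median 0.42). Over all entries tested the median was 0.00, with 8125 above and 8064 below 0. Among the 11, ADAM12 averaged 0.983 FPKM in HCC827/GR and 0.241 FPKM in HCC827, and it passed the filter through its level in HCC827/GR. The 15 genes under the filter are not in this count. They went both ways, with ADAM28 at a log2 difference of −0.23 and ADAMTS7 at 0.72. ADAMTS6 was at 2.64, 3.0 and 2.73 FPKM in HCC827/GR and at 1.12 and 0.641 FPKM in HCC827 (log2 fold change 1.02, limma adjusted p = 0.0210). ADAMTS9, a proteoglycan-cutting member, was at 5.37, 5.22 and 6.36 FPKM against 2.51 and 2.44 FPKM (log2 fold change 0.93, limma adjusted p = 0.0142). With single libraries left out, ADAMTS6 passed only without HCC827 replicate 2 (limma adjusted p from 0.0466 to 0.0738), and ADAMTS9 passed only without HCC827/GR replicate 2 or 3 (0.0389 to 0.0835). The main sheddases of growth factor precursors did not pass, with ADAM10 at a log2 fold change of 0.22 and ADAM17 at 0.16 (limma adjusted p = 0.615 and 0.444).

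Among 22 genes for matrix proteins that MMPs cut, 15 were tested, 5 were called higher, 4 lower and 6 neither (median log2 fold change 0.13). Over all entries tested, 5.26% were called higher and 5.71% lower, with a median of 0.00. COL4A1 and COL4A2, the chains of the common type IV collagen of basement membranes and textbook substrates of the gelatinases, rose by 3.04 and 1.84 on the log2 scale (limma adjusted p = 0.00157 and 0.00248). COL4A1 was at 26.2, 25.2 and 27.7 FPKM in HCC827/GR and at 2.13 and 2.54 FPKM in HCC827, and unlike MMP9 it was as high in replicate 2 as in the other resistant libraries. The proteoglycans VCAN (log2 fold change 1.30, limma adjusted p = 0.00400) and HSPG2 (1.29, limma adjusted p = 0.0117) also rose, as did the basement membrane linker NID1 (1.01, limma adjusted p = 0.0241). COL4A1, COL4A2 and VCAN passed with any library left out, HSPG2 was lost without HCC827/GR replicate 1 (limma adjusted p = 0.0557), and NID1 passed only without HCC827 replicate 3 (0.0473).

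The matrix genes called lower were FN1, LAMB3, LAMA3 and COL4A5. FN1 (fibronectin) was at 4.72, 5.37 and 3.99 FPKM in HCC827/GR and at 17.0 and 15.1 FPKM in HCC827 (log2 fold change −1.59, limma adjusted p = 0.00794). LAMB3 and LAMA3, chains of the laminin that lies under epithelia, fell by 1.15 and 0.92 on the log2 scale (limma adjusted p = 0.0489 and 0.0108). FN1 was lost without HCC827 replicate 2 (limma adjusted p = 0.0601), and LAMA3 passed only without HCC827/GR replicate 2 or 3 (0.0392 to 0.0644 over the 5 fits). LAMB3 passed only without HCC827/GR replicate 3 (limma adjusted p from 0.0300 to 0.200), and COL4A5 passed in 0 of these fits (0.0628 to 0.131). The fibrillar collagens that MMP1 and MMP13 cut were scarce in these cells, with COL1A1 at most 0.860 FPKM and COL3A1 at most 0.149 FPKM.

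**Figure D4:**
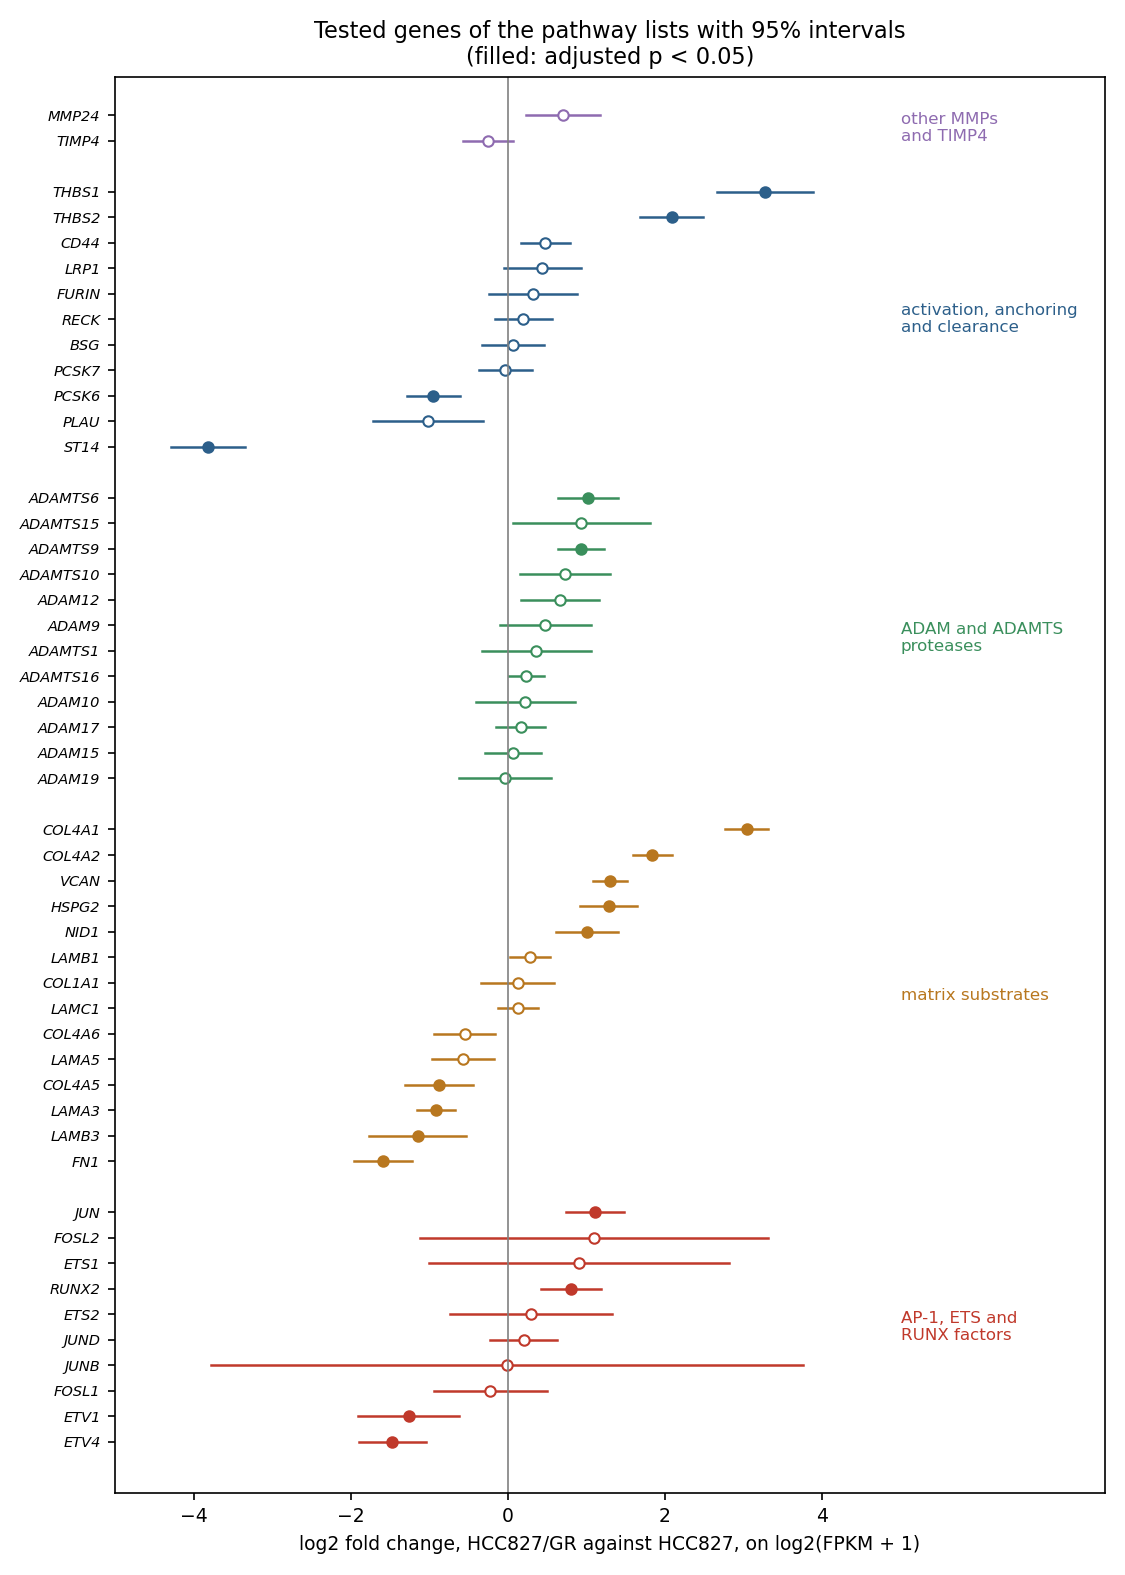
Log2 fold change of HCC827/GR against HCC827 on log2(FPKM + 1) (x axis) with 95% intervals for the tested genes of 5 lists (1 matrix gene is left out), filled where the limma adjusted p is under 0.05. ST14 lies lowest at −3.82 and THBS1 highest at 3.27, and 11 of the 12 ADAM and ADAMTS genes that passed the filter lie above 0.

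Transcription factors of the AP-1, ETS and RUNX families are the classical regulators of MMP promoters. Of 13 listed, 12 were in the table and 10 were tested, with 2 called higher, 2 lower and 6 neither (median log2 fold change 0.25). The shares called among all entries tested were 5.26% higher and 5.71% lower (median 0.00). JUN was at 29.4, 31.2 and 35.0 FPKM in HCC827/GR and at 12.6 and 15.9 FPKM in HCC827 (log2 fold change 1.11, limma adjusted p = 0.0164), and RUNX2 was at 3.6, 2.74 and 3.31 FPKM against 1.19 and 1.65 FPKM (log2 fold change 0.80, limma adjusted p = 0.0379). The ETS factors ETV4, at 0.781, 0.553 and 1.10 FPKM against 3.71 and 4.25 FPKM, and ETV1, at 0.650, 0.848 and 0.897 FPKM against 4.57 and 2.33 FPKM, fell (log2 fold changes −1.47 and −1.26, limma adjusted p = 0.0122 and 0.0418). With single libraries left out, RUNX2 passed in 0 of 5 fits (limma adjusted p from 0.0673 to 0.155), and JUN and ETV1 passed only without HCC827 replicate 3 (0.0477 to 0.0761 and 0.0371 to 0.123). ETV4 passed only without HCC827/GR replicate 2 or 3 (limma adjusted p from 0.0296 to 0.0778). FOSL1 was at 11.1, 11.3 and 16.6 FPKM against 11.8 and 19.2 FPKM (limma adjusted p = 0.668), and FOS and FOSB were under the filter.

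RefSeq promoters (GRCh38.p14, 250 bases before to 50 after the start) were matched for 5 of the 10 genes, namely MMP7, MMP14, MMP15, TIMP1 and TIMP3. The AP-1 letters TGAGTCA, read on both strands, occurred in the MMP7 promoter, where 4.95% of all 35116 promoters hold them, and the variant TGAGTAA occurred in that of TIMP1 (2.57% of promoters). The motifs differ at 1 letter, so a match to one is no match to the other, and they are shown in capitals because AP-1 is the factor most often named for MMP and TIMP1 promoters.
MMP7: aaacactcaaaTGAGTCAcctatttccac
TIMP1: tggtgggtggaTGAGTAAtgcatccagga
The MMP7 stretch lies at chr11:102530797-102530825 on the minus strand, with the motif beginning 67 bases before the RefSeq start. The TIMP1 stretch lies at chrX:47582324-47582352 on the plus strand, with the motif 101 bases before the RefSeq start, which lies downstream of the outermost GENCODE start of the gene given above. A match is a description of the letters only, and neither MMP7 nor TIMP1 passed the test.

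MMP1, MMP7 and MMP13 share a cluster on the long arm of chromosome 11 with further MMPs and with BIRC2, BIRC3 and YAP1. Of 15 symbols of this neighbourhood, 13 were in the table and 8 were tested. Of the tested, 0 were called higher and 2 lower, MMP1 and YAP1 (median log2 fold change 0.09). Among all entries tested, 5.26% were called higher and 5.71% lower (median 0.00). YAP1, a coactivator of the Hippo pathway, was at 9.36, 9.09 and 9.51 FPKM in HCC827/GR and at 12.4 and 13.4 FPKM in HCC827 (log2 fold change −0.43, limma adjusted p = 0.0477). The YAP1 call held in 4 of 14 alternatives and in 0 of the 5 fits with a library left out (limma adjusted p from 0.106 to 0.141), and MMP1 passed only without HCC827/GR replicate 3 among these. BIRC3, an inhibitor of apoptosis, was at 6.47, 7.03 and 12.04 FPKM against 6.42 and 3.68 FPKM (limma adjusted p = 0.297). BIRC2, TMEM123, DCUN1D5 and DYNC2H1 had log2 fold changes of 0.04, 0.37, 0.13 and 0.12, and none of these passed.

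The tested entries whose 5 centred library values of log2(FPKM + 1) lay nearest to those of MMP9 in Euclidean distance were HIGD2A (0.486), RABIF (0.660), TUBB2B (0.730), STX11 (0.905) and ELOVL5 (0.980). Being nearest to MMP9, they share by selection its low value in HCC827/GR replicate 2. HIGD2A was at 26.4, 3.32 and 29.6 FPKM in HCC827/GR and at 3.42 and 3.06 FPKM in HCC827, and ELOVL5 was at 51.9, 20.0 and 62.7 FPKM against 13.2 and 12.7 FPKM. The limma adjusted p of the 5 lay between 0.136 and 0.30. Nearest to MMP1 were BIK (0.244), FAM167A (0.250), CNTNAP3 (0.270), CASC19 (0.297) and LAMB3 (0.323), and by the same selection they resemble it. Their limma adjusted p was 0.0775, 0.0724, 0.0274, 0.0277 and 0.0489 in that order. As these entries were picked for resembling MMP1, the p-values are no independent test. FAM167A was at 0.271, 0.00818 and 0.815 FPKM in HCC827/GR and at 1.69 and 2.57 FPKM in HCC827. CNTNAP3 was at 0.153, 0 and 0.536 FPKM against 2.27 and 2.03 FPKM. Both averaged under 0.5 FPKM in HCC827/GR and passed the filter through their level in HCC827. BIK was at 1.82, 1.64 and 3.84 FPKM in HCC827/GR and at 5.92 and 7.51 FPKM in HCC827.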

How the data were processed

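Reads were trimmed with Cutadapt, checked with FastQC, mapped with Bowtie2 and TopHat2 and passed to StringTie for assembly, and the authors deposited 1 FPKM value per entry and library, estimated with StringTie and Ballgown. Versions are not given in the sources used here. The submitters' processing notes name hg18, while positions printed here are GRCh38 from GENCODE release 29, matched through Ensembl transcript identifiers (135164 of 135299 found). The sample descriptions speak of a small-RNA kit and single-end reads, whereas the methods of the study describe rRNA depletion, an mRNA kit and paired-end reads. The table holds 1 further FPKM column, which matched no sample and was not used. Library totals of FPKM lay between 138854 and 167722, and read depth is unknown.

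FPKM values were not rescaled. For the 16189 of 37181 entries averaging 0.5 FPKM or more, limma 3.58.1 in R 4.3.3 (trend, two-sided, no covariate) was run on log2(FPKM + 1), with Benjamini-Hochberg adjustment. Python 3.11.15 with pandas 2.3.3, numpy 2.4.6, scipy 1.17.1 and matplotlib 3.10.9 served for summaries and plots. The fit was first run on simulated data. Changes were put only into entries with a higher level than MMP1 and MMP7, so that run gives no check at the level of these genes. The genes and lists were chosen with earlier results of these data known. All 10 genes were named. From each list, called genes were named, up to the 4 with the largest log2 fold change in each direction, and genes under the filter could be named as such. The 5 nearest patterns of the members with the largest positive and negative log2 fold change were also named. Other list genes, among them NID1, MMP24 and PLAU, and the antisense entry at TIMP2 were chosen after their values were seen. A list gene is counted but not reported by name here. Alternatives were quantile normalization, median-ratio scaling, a pseudocount of 0.1, a filter at 1 FPKM or none, Ballgown's model and limma with no trend. Others were a replicate block, summed entries, a ratio of means and each library left out. Ballgown itself was not run. Its model was recoded here as an ordinary linear model with its library-size covariate. The ratios without MMP9 and with the joined TIMP2 entry were added after seeing the data. The pairs with TIMP1 and the sums and ratios without MMP24 were not planned beforehand.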

Additional observations from a re-analysis of the deposited data

How the results depend on the processing

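FPKM without counts, 3 against 2 libraries and names assigned to assembled loci limit these results. With a pseudocount of 0.1, 860 entries were higher and 1024 lower by fold change and unadjusted p (480 and 643 in the comparison as reported), and 0 members were called lower. Fold changes taken as the ratio of mean FPKM gave 919 and 1201. Without a filter, 504 entries were called higher (851 as reported), 0 members lower and 4 list genes lower (9 as reported). With Ballgown's model as recoded here, 6 entries were called higher and 9 lower, with 0 members lower and 0 list genes in either direction. In that fit 2782 entries had an unadjusted p under 0.05. Same-numbered libraries shared little deviation from their group means (r = 0.03 for number 2 and 0.01 for number 3). With only 2 HCC827 libraries, these values cannot show whether the samples were paired. A limma fit with the replicate number as a block called 0 entries higher and 0 lower, 0 members and 0 list genes. That fit had 3545 entries at an unadjusted p under 0.05 (4410 as reported). Leaving out single libraries gave 181 to 450 entries higher and 248 to 434 lower (924 as reported), 0 to 1 members in each direction, 5 to 8 list genes higher (11 as reported) and 1 to 5 lower. The calls of MMP1, and of MMP9 without HCC827/GR replicate 2, are those described above. With single libraries left out, the log2 fold change of MMP7 ran from −0.028 without HCC827/GR replicate 2 to 0.16, and it passed in none of these fits. The mean MMP to TIMP ratio turned to 4.27 in HCC827/GR above 3.59 in HCC827 over all MMP and TIMP symbols, where MMP24 takes most of the sum. Without MMP9 the mean in HCC827/GR was 0.464, and with the joined TIMP2 entry counted as TIMP2 the means were 0.795 in HCC827/GR and 0.697 in HCC827, so that their order turned. Leaving out the most abundant MMP and TIMP gave no ratio, since the TIMP sum was then 0 in 2 libraries. Beyond leaving out or adding these genes and entries, the cause of these shifts was not tested.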
